A study of Rattus norvegicus with 30 samples.

Results

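The genes described here build the toughened surface of the squamous lining of the oesophagus: precursors of the cornified envelope, desmosome and other junction genes, transcription factors of squamous differentiation, and further genes of the suprabasal layers. They were taken as a list of 40 named genes, and 37 of them were measured, out of 14217 genes with a symbol on the array. By class, 11 of 12 envelope genes, 9 of 10 junction genes, 10 of 11 factors and Notch receptors, and 7 of 7 other suprabasal genes were measured. No probe set was matched to Crnn, Dsg3 or Ovol1, which are not analysed here.

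Transcripts were measured on 30 arrays of oesophageal epithelium, each array standing for 1 male Sprague-Dawley rat, in a study of microRNA miR-31 in oesophageal carcinogenesis. Every rat started its diet at 4 weeks of age and received the oesophageal carcinogen N-nitrosomethylbenzylamine (NMBA) in 4 weekly doses of 2 mg/kg from week 5, so no group was free of the carcinogen. Of the rats without a gene edit, 5 ate a zinc-deficient diet freely (ZD) and 5 a zinc-sufficient diet in amounts matched to the ZD rats (ZS), both without further treatment. In 5 more ZD rats miR-31 was targeted for 5 weeks with a locked nucleic acid oligonucleotide (antimiR), injected into the tail vein first at 20 mg/kg and then 9 times at 6 mg/kg. In another 5 ZD rats the same course was followed by 20 more doses of 6 mg/kg, for 20 weeks in all. The last 2 groups were miR-31-/- rats, a constitutive CRISPR/Cas9 knockout in the same strain, 4 on ZS and 6 on ZD. Their miR-31+/+ littermates are not analysed here, and how many founder lines the knockout rats came from is not given in the sources used here. For all groups, the 5-week antimiR group included, the design lists 15 weeks from NMBA to the end. By this listing 5 weeks is the length of the antimiR course and not the time of sampling. No label states the age of these rats at sampling outright.

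Stratified squamous epithelium renews itself from a basal layer, and cells that leave it switch on a suprabasal programme. Precursor proteins such as involucrin, the small proline-rich (Sprr) proteins, envoplakin and periplakin are joined under the plasma membrane by transglutaminases into the cornified envelope, while desmosomes couple the keratin filaments of neighbouring cells. Krüppel-like, grainyhead-like and Ets family factors, p63 and Notch signalling are known to direct this programme, and zinc deficiency is known to thicken the rat oesophageal epithelium and disturb its keratinization.

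The antimiR and the knockout both act on miR-31, whose mature RNA, from RefSeq, is transcribed from chr5:108714906-108714927 (GRCr8, minus strand) and is shown because the treatments are defined by it, with its seed (bases 2 to 8) in capitals.
rno-miR-31a-5p: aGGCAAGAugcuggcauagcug
The arrays carried no measurement of miR-31 that was used here, so neither treatment could be checked on its target. The promoters of the 4 members with the widest diet changes in unedited rats are shown next, as the 250 bases before the RefSeq transcript start in GRCr8, so that the pair that rose together (Sprr1b and Sprr2d) can be set beside the pair that fell together (Cldn10 and Upk1b). Capitals mark matches on either strand to any of 4 short motifs. The motif of AP-1 factors was searched as TGANTCA. For Krüppel-like factors the letters searched were CCACCC. For Ets factors they were AGGAAG. The TATA box was searched as TATAAA, and in these 4 windows no match overlapped another. These are chr2:180706356-180706605 (minus strand), chr2:180566283-180566532 (minus strand), chr15:102269608-102269857 (plus strand) and chr11:75459131-75459380 (plus strand), in that order.
Sprr1b: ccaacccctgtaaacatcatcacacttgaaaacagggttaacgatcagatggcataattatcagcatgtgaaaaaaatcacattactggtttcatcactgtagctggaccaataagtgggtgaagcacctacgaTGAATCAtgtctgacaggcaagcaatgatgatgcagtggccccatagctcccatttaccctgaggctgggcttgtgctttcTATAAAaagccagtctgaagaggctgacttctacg
Sprr2d: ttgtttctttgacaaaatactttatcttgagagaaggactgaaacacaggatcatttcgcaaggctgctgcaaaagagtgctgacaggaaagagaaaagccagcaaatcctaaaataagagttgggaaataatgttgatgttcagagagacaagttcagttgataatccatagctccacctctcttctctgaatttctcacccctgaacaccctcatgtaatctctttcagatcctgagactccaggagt
Cldn10: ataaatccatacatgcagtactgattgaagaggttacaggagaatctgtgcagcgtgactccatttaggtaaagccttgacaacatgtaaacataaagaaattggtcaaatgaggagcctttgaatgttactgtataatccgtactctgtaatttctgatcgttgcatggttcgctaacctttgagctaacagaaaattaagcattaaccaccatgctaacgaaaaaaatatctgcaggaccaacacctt
Upk1b: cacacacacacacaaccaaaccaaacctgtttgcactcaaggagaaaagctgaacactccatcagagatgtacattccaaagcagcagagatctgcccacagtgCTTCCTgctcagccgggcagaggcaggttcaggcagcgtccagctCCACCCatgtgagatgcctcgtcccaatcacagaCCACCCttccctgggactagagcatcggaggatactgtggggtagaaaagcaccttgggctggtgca
The Sprr1b window held an AP-1 match that begins 116 bases before the start and a TATA match at 35 bases. The Upk1b window held 2 Krüppel-like matches, at 101 and 67 bases, and an Ets match at 146 bases. None of these letters occurred in the Sprr2d and Cldn10 windows. Over 33469 promoter windows of the same length, 6.3% held the AP-1 letters, 26.1% the Krüppel-like, 29.5% the Ets and 12.9% the TATA letters. The promoter table held an entry for 31 of the 37 measured members.

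Array values are RMA expression values on the log2 scale, where 1 unit is a 2-fold difference. Median array values were 5.37 to 5.45 on the 20 arrays of unedited rats and 5.81 to 5.93 on the 10 knockout arrays, 2 sets that do not overlap. The knockout arrays came from a separate experiment and were taken as normalized apart. Knockout and unedited levels were therefore not tested against each other, and the genotypes were compared only through the difference of their diet changes, in which genotype and experiment cannot be told apart. Keratins that define the tissue were among the brightest genes, with basal Krt5, Krt14 and Krt15 and suprabasal Krt4 and Krt13 at the 99.2 to 100 percentiles of level. Smooth muscle markers, 10 of 10 measured, differed between the diets: their mean level was 9.11 to 10.57 on the ZS arrays and 7.10 to 8.38 on the ZD arrays of unedited rats, and 10.80 to 11.75 against 9.38 to 10.96 in knockout rats. One ZS knockout array, number 32, stood apart. Its leukocyte marker mean was 8.88 against 7.03 to 7.69 on the other 3 arrays of its group and its fibroblast marker mean 11.26 against 9.46 to 10.32. Its median distance from the group mean over the members was 0.35, above the at most 0.20 of every other array. In bulk epithelium, fewer cells of a type and less RNA per cell cannot be told apart.

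**Figure D1:**
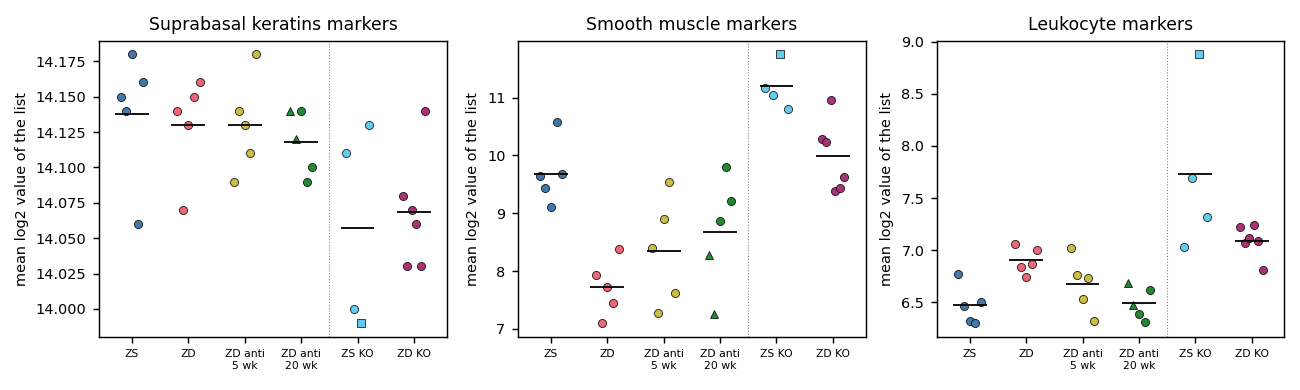
Mean log2 value of the suprabasal keratin, smooth muscle and leukocyte marker lists on each array (points), with the group mean (bar), for the 6 groups; the dotted line separates the knockout arrays, the square is ZS knockout array 32 and the triangles are 20-week antimiR arrays 1 and 2. Suprabasal keratins stay between 13.99 and 14.18 in every group, on a narrow axis, while smooth muscle markers are 9.11 to 10.57 on ZS and 7.10 to 8.38 on ZD arrays of unedited rats.

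In unedited rats the ZD diet split the list. The small proline-rich genes Sprr1b and Sprr2d, corneodesmosin (Cdsn), claudin-1 (Cldn1), Elf3 and annexin A1 (Anxa1) rose, and envoplakin (Evpl), periplakin (Ppl), claudin-10 (Cldn10), Elf5, Emp1, Slurp1 and uroplakin-1b (Upk1b) fell. These 13 of 37 members (35.1%) passed an adjusted p of 0.05 in limma, against 13.9% of all genes tested, and the 6 that rose and 7 that fell stand beside 6.94% and 6.95% of all genes. The median change over the members was -0.02, against 0 over all genes, with a range of -2.89 to 2.35. The ZD and ZS arrays did not overlap for 5 of the members above and 4 below, where 5.91% and 5.45% of all genes did not overlap. Members moved in both directions within each of the 4 classes: 2 envelope genes rose and 2 fell, as did 2 and 1 junction genes, 1 and 1 factors, and 1 and 3 other suprabasal genes. The calls of Ppl, Elf3 and Emp1 were lost in a fit of the 2 diet groups alone (adjusted p up to 0.133).

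In knockout rats most calls of the same diet contrast were upward: 10 members rose on ZD (Sprr2d, Sprr3, Scel, Cdsn, Cldn1, Klf4, Grhl1, Elf5, Ehf and Lypd3) and only Notch1 fell, 11 of 37 (29.7%) against 21.4% of all genes, and 9.47% of all genes rose and 12% fell. The ZD and ZS arrays did not overlap for 4 members above (Ivl, Klf4, Grhl1 and Ehf) and 1 below (Notch1), beside 7.18% and 7.15% of all genes. The median change over the members was 0.20, against 0.01 over all genes. Without array 32, 4 members passed (Cldn1, Klf4, Grhl1 and Ehf) where 11% of all genes did, and the median over the members was 0.06. A fit of the knockout arrays alone ended the calls of Sprr3, Scel, Cdsn, Elf5 and Lypd3 (adjusted p up to 0.119). In the same fit Ivl and Slurp1, not called with all arrays, passed. Of the members called in each genotype, 4 were called in both. That is 30.8% of those called in unedited rats, near the 29.7% of all 37 members called in knockout rats. It is 36.4% of those called in knockout rats, near the 35.1% of all 37 members called in unedited rats. Sprr2d, Cdsn and Cldn1 rose in both, and Elf5 fell in unedited and rose in knockout rats.

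The difference of the 2 diet changes was tested directly. It passed for 5 of 37 members (13.5%), each with a more positive change in knockout rats, against 8.39% of all genes and 3.78% in that direction. They were Cldn10, Klf4, Grhl1, Elf5 and Slurp1. Without array 32 only Elf5 and Slurp1 passed, beside 4.33% of all genes. The median difference over the members was 0.20, against -0.01 over all genes, and 0.09 without array 32.

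Few members passed a test with antimiR. After 5 weeks no member passed against untreated ZD, nor did any of the 14217 genes (0%). At an unadjusted limma p under 0.05 there were 2 members (Elf3 and Emp1) beside 7.18% of all genes. After 20 weeks 1 member passed, Elf5, which rose (2.7% of members, against 0.647% of all genes, and 0.162% that rose). At an unadjusted limma p under 0.05 there were 12 of the 37 members, a larger share than the 14.8% of all genes. They were Sprr2d, Evpl, Tgm1, Scel, Pkp1, Cldn10, Elf3, Elf5, Sfn, Emp1, Lypd3 and Upk1b. No member passed between 20 and 5 weeks in limma, where 0.0211% of all genes did, and 4 members (Scel, Grhl3, Elf5 and Upk1b) had an unadjusted p under 0.05, beside 6.11% of all genes.

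The antimiR groups were also set against ZS rats. After 5 weeks 7 members passed (18.9%, against 9.08% of all genes). Sprr1b and Sprr2d were higher than in ZS, where 4.6% of all genes were, and Dsc2, Cldn10, Elf5, Slurp1 and Upk1b were lower, where 4.48% were. The groups did not overlap for 4 members above and 5 below, beside 4.54% and 3.69% of all genes. The Sprr2d call was lost without any of 5-week arrays 7 to 10 and ZS arrays 16, 17 and 20 (adjusted p up to 0.146), and that of Cldn10 without 5-week array 8 or 9 or ZS array 16, 18 or 19 (up to 0.089). After 20 weeks no member passed in limma, against 3.63% of all genes, with 8 at an unadjusted p under 0.05 (18.9% of all genes) and a smallest adjusted p of 0.06, for Dsc2. These comparisons share the untreated ZD or ZS arrays with the diet comparison, so their values are given side by side and no agreement between them is counted.

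**Figure D2:**
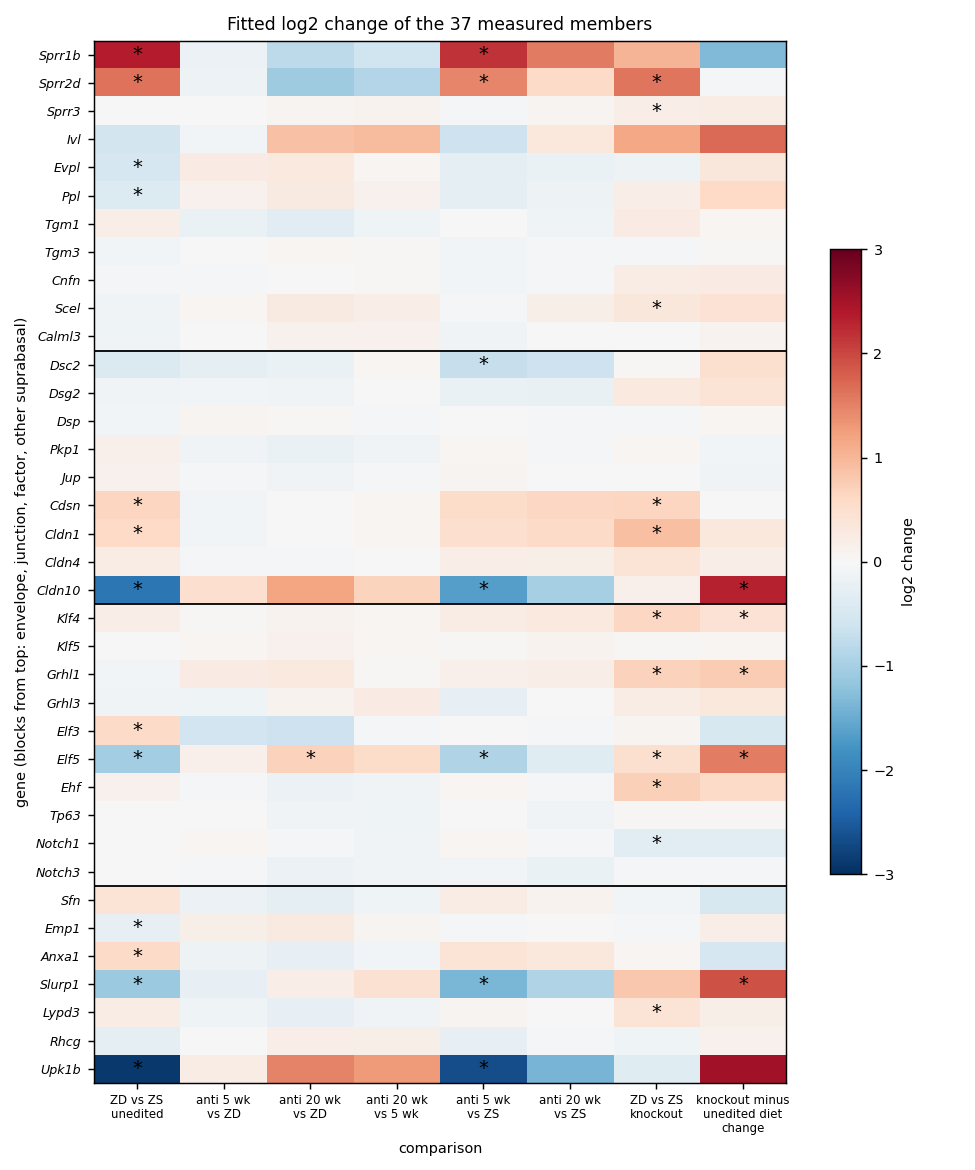
Fitted log2 change (colour) of each of the 37 measured members (rows, in blocks of envelope, junction, factor and other suprabasal genes) in the 8 comparisons (columns); an asterisk marks an adjusted p under 0.05. Asterisks number 13 for diet in unedited rats, 11 for diet in knockout rats, 5 for the difference of the diet changes, 7 for 5 weeks of antimiR against ZS and 1 for 20 weeks of antimiR against ZD.

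Among envelope precursors, Sprr1b, a cross-bridging protein of the envelope, read 8.82, 11.52, 11.69, 10.75 and 11.27 on the ZS arrays and 12.84, 13.54, 12.93, 13.57 and 12.88 on the ZD arrays. All 5 ZD arrays lay above every ZS array, and ZS array 16 was the lowest of its group. The mean rose from 10.81 ± 1.17 (SD, n = 5) to 13.15 ± 0.37 (n = 5), a change of 2.35 (SE 0.48, adjusted p 0.00218) or 5.08-fold. It stood at 12.24, 13.08, 13.37, 13.40 and 12.79 after 5 weeks of antimiR, a change against ZD of -0.17 (95% interval -1.16 to 0.81, adjusted p 0.958). After 20 weeks it read 12.84 and 13.34 on arrays 1 and 2, within the untreated ZD range, and 12.20, 11.71 and 11.78 on arrays 3, 4 and 5, below it. The change against ZD over all 5 was -0.78 (-1.76 to 0.21, adjusted p 0.462). In knockout rats Sprr1b read 9.82, 10.01, 9.66 and 10.42 on ZS and from 9.69 through a median of 11.15 to 12.39 on ZD. Those groups overlapped, and the change of 1.03 (SE 0.49) had an adjusted p of 0.137.

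Sprr2d, of the same family, rose by 1.63 (SE 0.47, adjusted p 0.0192) with ZD in unedited rats, from 10.00, 11.59, 12.26, 12.02 and 10.66 to 13.04, 13.21, 12.48, 13.36 and 12.60. Again no ZD array reached down to a ZS array. Without ZD array 14, ZS array 16 or ZS array 20 the adjusted p was over 0.05, at most 0.0708. On the knockout background it rose by 1.60 (SE 0.48, adjusted p 0.0175), from 9.93, 10.64, 9.32 and 11.52 on ZS to between 11.36 and 12.76, median 11.99, on ZD. The difference between the 2 diet changes was -0.03, with a 95% interval of -1.40 to 1.33 that leaves room for a change more than a log2 unit apart. The knockout call was lost without array 32, at 1.26 (adjusted p 0.11). Sprr genes are close copies of each other, so the probe sets for Sprr1b and Sprr2d may also pick up other family members.

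Sprr3 sat near the top of the array scale, at 13.91 ± 0.07 (n = 5) on ZS and 13.90 ± 0.08 (n = 5) on ZD in unedited rats, where the highest value of any gene was 14.5. In knockout rats it rose by 0.21 (SE 0.06, adjusted p 0.0128), from between 13.31 and 13.65 to between 13.60 and 13.77. Sciellin (Scel), another envelope precursor, rose by 0.34 (SE 0.10, adjusted p 0.0178) in knockout rats, from 11.81, 11.47, 11.24 and 11.77 to between 11.77 and 12.06. In unedited rats its change was -0.10 (SE 0.10). Both knockout calls were lost without array 32, with adjusted p values of 0.0937 and 0.142, and that of Scel also without ZS array 31.

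The plakins Evpl and Ppl, which anchor the envelope to keratin filaments and desmosomes, moved opposite to the Sprr genes in unedited rats. Evpl read 11.27, 11.10, 11.38, 10.88 and 10.99 on ZS and 10.48, 10.53, 10.94, 10.37 and 10.81 on ZD. Only ZD array 13 lay within the ZS range, and the change was -0.50 (SE 0.13, adjusted p 0.0126). Ppl read 13.08, 13.20, 13.18, 12.95 and 13.03 on ZS and 12.85, 12.78, 12.57, 12.27 and 12.94 on ZD, so every ZD array lay below every ZS array, the nearest pair only just. It fell by 0.41 (SE 0.13, adjusted p 0.0434), a call lost on leaving out any of 7 of the 10 arrays (ZD 12, 13 and 14, ZS 16, 17, 18 and 20), with an adjusted p of up to 0.161. In knockout rats the diet changes were -0.15 (adjusted p 0.467) for Evpl and 0.20 (adjusted p 0.328) for Ppl. For Ppl the difference of the diet changes, 0.60 (SE 0.19), just missed the threshold (adjusted p 0.0501).

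Involucrin (Ivl), an early scaffold of the envelope, varied widely between rats of a group. It read 6.77, 5.93, 6.42, 8.85 and 5.77 on ZS and 6.40, 6.32, 5.68, 7.01 and 5.61 on ZD in unedited rats. Its knockout values were 5.50, 5.95, 5.28 and 5.65 on ZS and 6.10 to 7.44, median 6.80, on ZD. The knockout groups did not overlap, yet with all arrays in the fit the change of 1.15 (SE 0.50) did not pass (adjusted p 0.0966). It passed in a fit of the knockout arrays alone. The difference from unedited rats did not pass (1.70, adjusted p 0.128). The cross-linking enzymes Tgm1 and Tgm3, cornifelin (Cnfn) and the calmodulin-like protein Calml3, all bright, passed in none of the 8 comparisons. With Ivl, their diet changes in unedited rats ran from -0.54 (Ivl) to 0.20 (Tgm1). Smooth muscle markers fell with ZD beside every envelope call in unedited rats, as they did beside those of the other classes.

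**Figure D3:**
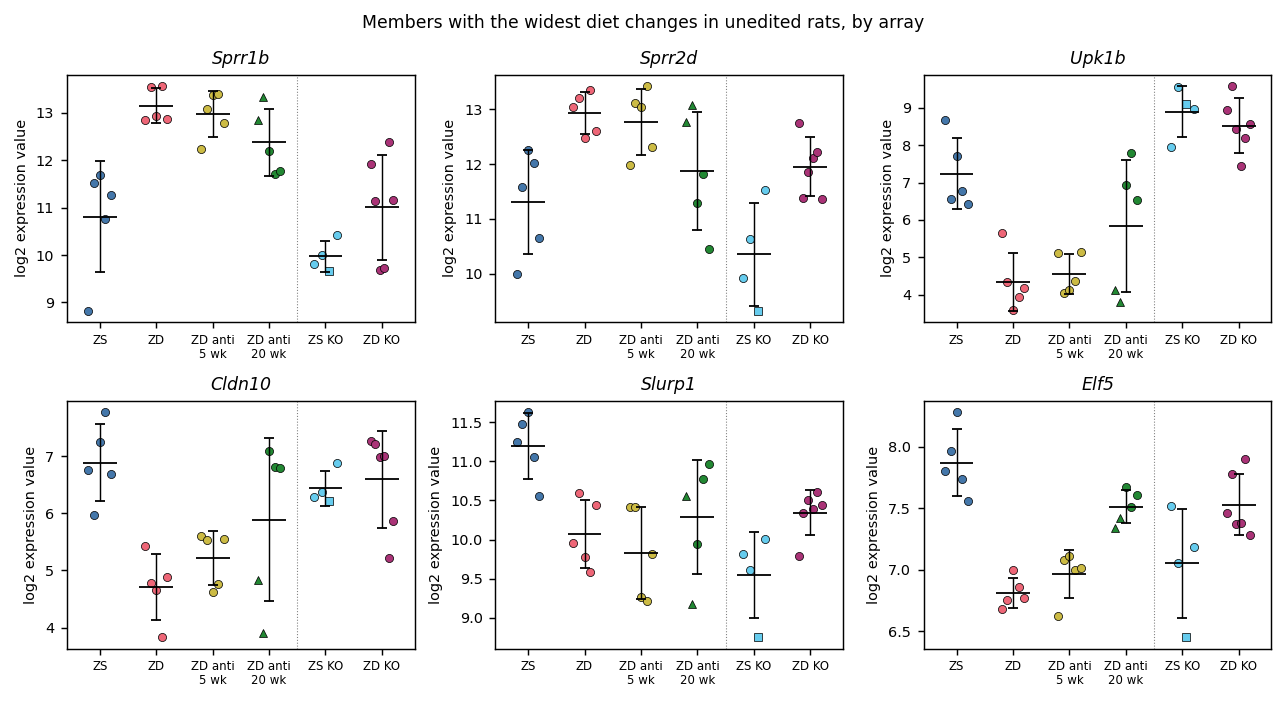
Log2 value of Sprr1b, Sprr2d, Upk1b, Cldn10, Slurp1 and Elf5 on each array (points), with the group mean and SD (bars), by group; the dotted line separates the knockout arrays, the square is ZS knockout array 32 and the triangles are 20-week antimiR arrays 1 and 2. Sprr1b is higher on all ZD than on all ZS arrays of unedited rats, Upk1b, Cldn10 and Elf5 are lower, and the 2 triangles lie apart from the other 20-week arrays for Upk1b (4.12 and 3.80 against 6.54 to 7.79).

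Among desmosome genes, most plaque and cadherin genes passed no test. Desmoplakin (Dsp), which links desmosomes to keratins, changed by -0.08 (95% interval -0.19 to 0.03) with ZD in unedited and by -0.03 (-0.14 to 0.08) in knockout rats. Plakoglobin (Jup) changed by 0.12 (-0.03 to 0.28) and 0.01 (-0.14 to 0.17). Neither passed in any of the 8 comparisons, and the same holds for the desmosomal cadherin Dsg2, the plaque protein Pkp1 and claudin-4 (Cldn4). The cadherin Dsc2 read 10.69, 10.46, 10.74, 11.22 and 10.47 on ZS and 9.79, 10.04, 10.09, 10.03 and 10.19 after 5 weeks of antimiR, lower on all 5 arrays by 0.69 (SE 0.19, adjusted p 0.0202). The call was lost without ZS array 19 (adjusted p 0.07). After 20 weeks it was 9.89 to 10.25, again below every ZS array, but the change of -0.62 did not pass (adjusted p 0.06), and untreated ZD rats, at 9.43 to 10.78, overlapped with ZS (-0.43, adjusted p 0.128).

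Cdsn, which holds the outermost cells together, was one of 3 members that rose with ZD in both genotypes. It read 11.56, 11.96, 11.95, 11.52 and 11.75 on ZS and 12.35, 12.39, 11.96, 12.51 and 12.72 on ZD in unedited rats, with the highest ZS and the lowest ZD array about level. The change was 0.64 (SE 0.19, adjusted p 0.0277), lost without any of ZD arrays 12, 14 and 15 and ZS arrays 16 and 19 (adjusted p up to 0.0704). For the knockout groups it was also 0.64 (SE 0.20, adjusted p 0.0217), from 11.51, 11.32, 10.47 and 11.87 to between 11.75 and 12.43, and was lost without array 32 (0.37, adjusted p 0.192) or ZD array 34. The 2 changes differed by 0.01 (95% interval -0.56 to 0.58).

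Cldn1, a tight junction protein that seals stratified epithelia, read 8.84, 9.00, 9.05, 9.06 and 8.80 on ZS and 9.64, 9.73, 9.76, 9.41 and 9.16 on ZD. It rose by 0.59 (SE 0.18, adjusted p 0.0239), with no overlap, and the call was lost without any of ZD arrays 12 and 13 and ZS arrays 16 and 20 (adjusted p as high as 0.0653). Among knockout rats the rise was 0.90 (SE 0.18, adjusted p 0.000816), from 8.37, 8.16, 7.89 and 8.54 to between 8.39 and 9.46, median 9.35. That call held without array 32 (0.79, adjusted p 0.00798) and with the smooth muscle level as a covariate (0.59, adjusted p 0.0187). Of the Cldn1 probe sets not used, one gave 0.94 in knockout rats but another only 0.13. The antimiR groups read 9.21 to 9.91 after 5 weeks and 9.24 to 9.76 after 20 weeks, above every ZS array, with changes against ZS of 0.50 (adjusted p 0.0733) and 0.57 (adjusted p 0.0654).

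Cldn10, a claudin that forms ion-selective pores, was at the 37.1 percentile of level, and RMA values of dim probe sets are least certain. It read 6.75, 5.97, 7.24, 7.77 and 6.68 on ZS and 5.42, 4.78, 4.66, 3.83 and 4.88 on ZD, so every ZD array lay below every ZS array. It fell by 2.17 (SE 0.49, adjusted p 0.00445) and kept this call on leaving out each of the 10 arrays. Knockout values were 6.28, 6.37, 6.21 and 6.88 on ZS and 5.22 to 7.26, median 6.99, on ZD, a change of 0.16 (95% interval -0.87 to 1.18). The difference of the diet changes was 2.32 (SE 0.70, adjusted p 0.0386). It was lost on leaving out any of 12 of the 20 arrays in the comparison, array 32 among them (2.25, adjusted p 0.0809), and the covariate for smooth muscle also ended it (1.93, adjusted p 0.0617). After 5 weeks of antimiR Cldn10 was still below ZS, at 4.63 to 5.60 (-1.66, adjusted p 0.0317). After 20 weeks it read 4.84 and 3.91 on arrays 1 and 2 and 7.09, 6.81 and 6.80 on the other 3, which sat within the ZS range, and the change against ZD of 1.18 (0.17 to 2.18) did not pass (adjusted p 0.253).

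Among the transcription factors, Elf5, an Ets family factor of keratinized and glandular epithelia, gave the smallest adjusted p of the members in unedited rats. It read 7.80, 7.96, 8.28, 7.74 and 7.56 on ZS and 6.68, 6.75, 7.0, 6.86 and 6.77 on ZD, without overlap. It fell by 1.05 (SE 0.15, adjusted p 0.000104), and it was the only member still called with the smooth muscle covariate (-1.17, adjusted p 0.00839). After 5 weeks of antimiR it read 6.62, 7.08, 7.11, 7.0 and 7.01, a change against ZD of 0.15 (-0.16 to 0.46). After 20 weeks it read 7.34, 7.42, 7.67, 7.51 and 7.61, above every untreated ZD array. That rise of 0.70 (SE 0.15, adjusted p 0.028) was lost without any of 20-week arrays 3 to 5 or of ZD arrays 11, 12 and 14 (adjusted p as high as 0.0963), and the smooth muscle covariate also ended it (0.75, adjusted p 0.057). Against ZS the 20-week level was -0.36 (-0.67 to -0.04, adjusted p 0.199), and between 20 and 5 weeks the groups did not overlap but the change of 0.55 did not pass (adjusted p 0.356). Arrays 1 and 2 were the lowest of the 20-week group, as for Upk1b and Cldn10, but above every ZD array.

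In knockout rats Elf5 moved the other way. It read 7.52, 7.05, 6.45 and 7.18 on ZS and 7.28 to 7.90, median 7.42, on ZD, a rise of 0.48 (SE 0.16, adjusted p 0.0295) that was lost without ZS array 31 or 32 (0.28, adjusted p 0.233, without 32) or ZD array 35 or 38. The difference of the diet changes was 1.53 (SE 0.22, adjusted p 0.000205). It kept its call on leaving out each of the 20 arrays, with 1.33 (adjusted p 0.000307) without array 32, and under the 8 alternatives run for it.

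Klf4, a factor of terminal differentiation, lay within a narrow band in unedited rats, at 12.40, 12.39, 12.49, 12.39 and 12.46 on ZS and 12.66, 12.61, 12.37, 12.82 and 12.64 on ZD (0.19, adjusted p 0.187). The knockout arrays read 11.77, 11.82, 11.35 and 11.99 on ZS and 12.18 to 12.52, median 12.39, on ZD, with no overlap. The rise of 0.63 (SE 0.10, adjusted p 7.65e-05) held without array 32 (0.50, adjusted p 0.000689). The difference of the diet changes, 0.44 (SE 0.14, adjusted p 0.0477), was lost on leaving out any of 16 of the 20 arrays and was 0.31 (adjusted p 0.146) without array 32.

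The grainyhead factor Grhl1, an activator of desmosomal cadherin genes, read 11.13, 11.13, 11.13, 10.90 and 11.27 on ZS and 11.11, 10.66, 11.05, 10.92 and 11.34 on ZD in unedited rats (-0.09, adjusted p 0.727). With ZD the knockout level rose by 0.68 (SE 0.15, adjusted p 0.00205), from 10.78, 10.52, 9.67 and 10.57 to between 10.79 and 11.41, and by 0.44 (adjusted p 0.0173) without array 32. The difference of the diet changes, 0.77 (SE 0.21, adjusted p 0.0233), missed the threshold without array 32 (0.53, adjusted p 0.0556) and in a fit of the 4 diet groups alone (0.77, adjusted p 0.0561), and passed without each of the other 19 arrays. Ehf, an epithelial Ets factor, rose by 0.72 (SE 0.15, adjusted p 0.00152) in knockout rats, from 7.91, 7.90, 7.43 and 8.11 to between 8.20 and 8.83, and by 0.58 (adjusted p 0.016) without array 32. In unedited rats its change was 0.14 (adjusted p 0.592), and the difference of the diet changes did not pass (0.58, adjusted p 0.0871).

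**Figure D4:**
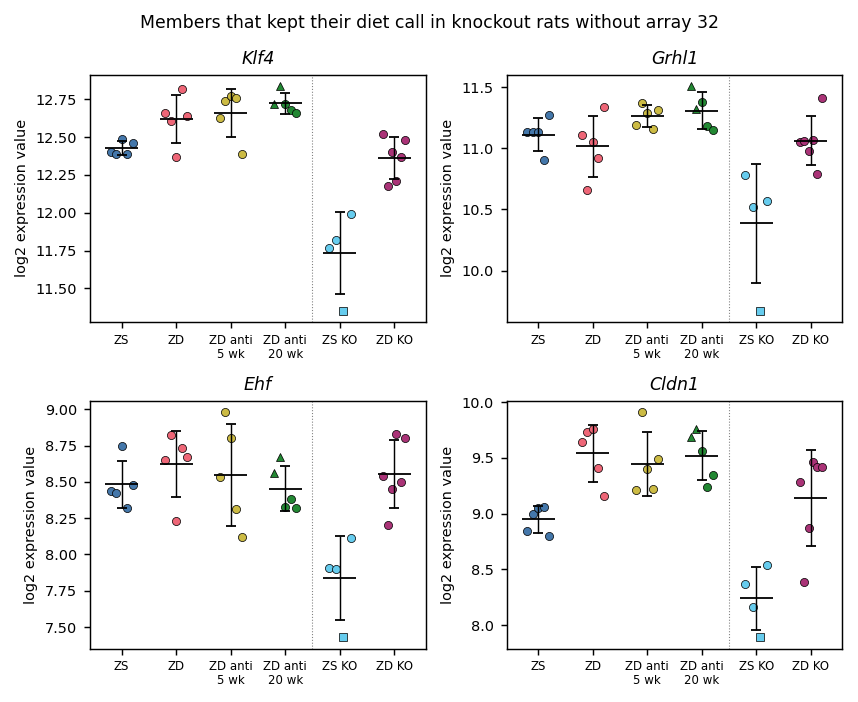
Log2 value of Klf4, Grhl1, Ehf and Cldn1 on each array (points), with the group mean and SD (bars), by group; these are the 4 members whose diet call in knockout rats held without ZS knockout array 32 (square). For Klf4, Grhl1 and Ehf the ZS and ZD knockout arrays do not overlap, while in unedited rats they do; Cldn1 is higher on ZD in both, overlapping in knockout rats.

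Elf3, another Ets factor, rose by 0.57 (SE 0.19, adjusted p 0.0392) with ZD in unedited rats, from 5.90, 5.89, 6.23, 6.06 and 5.94 to 6.86, 7.19, 5.91, 6.83 and 6.10. ZD arrays 11, 12 and 14 lay above every ZS array, and the call was lost on leaving out any of 7 of the 10 arrays (ZD 11, 12 and 14, ZS 16, 17, 19 and 20; adjusted p up to 0.143). After antimiR it read 5.87 to 6.10 at 5 weeks and 5.65 to 6.53 at 20 weeks, changes against ZD of -0.57 (adjusted p 0.49) and -0.62 (adjusted p 0.108). The receptor Notch1 read 9.83, 9.68, 9.62 and 9.77 on ZS and 9.28 to 9.62, median 9.37, on ZD in knockout rats. Its fall of 0.33 (SE 0.12, adjusted p 0.0437) was lost on leaving out any of 9 of the 10 arrays, and a second Notch1 probe set gave 0.58. Klf5, Grhl3, Tp63 and Notch3 passed in no comparison with the probe set used for each. The 3 other probe sets of Klf5, a Krüppel-like factor of proliferating epithelium, gave knockout diet changes of 0.30, 0.48 and 0.47 where the one used gave 0.04, and with the mean of all 4 Klf5 passed. For Tp63, which maintains the basal layer, the diet change was 0 in unedited rats (95% interval -0.21 to 0.21) and 0.03 in knockout rats (-0.19 to 0.25). A second, dimmer Tp63 probe set gave 0.61 in knockout rats. Notch3 lay close to the array median.

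Among the other suprabasal genes, Upk1b, a tetraspanin best known from the bladder lining, had the widest diet change of all members. It read 8.67, 6.57, 7.72, 6.77 and 6.42 on ZS and 5.64, 4.35, 3.59, 3.95 and 4.18 on ZD, so the groups did not overlap and most ZD arrays lay below the array median. It fell by 2.89 (SE 0.60, adjusted p 0.00227) and kept the call on leaving out each of the 10 arrays, though not with the smooth muscle covariate (-1.73, adjusted p 0.283). After 5 weeks of antimiR it read 5.12, 4.04, 4.13, 4.37 and 5.15, below every ZS array (-2.67, adjusted p 0.00575). After 20 weeks it read 4.12 and 3.80 on arrays 1 and 2 and 6.93, 7.79 and 6.54 on the other 3. The change against ZD was 1.49 (0.27 to 2.72, adjusted p 0.231). The knockout arrays gave 7.94, 9.56, 9.11 and 8.96 on ZS and 7.43 to 9.59, median 8.51, on ZD, a change of -0.37 (-1.62 to 0.88), and the difference of the diet changes, 2.52 (SE 0.85), did not pass (adjusted p 0.0633).

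On the 20-week arrays the smooth muscle markers moved with Upk1b and Cldn10, at 8.27 and 7.25 on arrays 1 and 2 and 8.86, 9.80 and 9.21 on arrays 3, 4 and 5. Their part in the spread of that group was not tested. Anxa1 read 13.54 and 13.78 on arrays 1 and 2, and 12.97, 12.87 and 12.97 on the others. Not every member called for diet divided in this way. Slurp1 read 10.56 and 9.18 on arrays 1 and 2, and 9.94, 10.78 and 10.97 on the others. Cdsn read 12.60 and 12.58, and 12.61, 12.05 and 12.03.

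Slurp1, a secreted regulator of keratinocytes, read 11.25, 11.48, 11.63, 11.06 and 10.56 on ZS and 9.95, 10.60, 9.78, 9.59 and 10.44 on ZD, with only ZS array 20 inside the ZD range. It fell by 1.12 (SE 0.31, adjusted p 0.0155), a call lost without ZD array 14 (adjusted p 0.0541). After 5 weeks of antimiR it was lower than on every ZS array, at 9.22 to 10.42 (-1.37, adjusted p 0.00584), and after 20 weeks it was 9.18 to 10.97 (-0.91, adjusted p 0.0955). Slurp1 in knockout rats read 9.81, 9.61, 8.75 and 10.01 on ZS and 9.79 to 10.61, median 10.42, on ZD. The change of 0.80 (SE 0.31) did not pass with all arrays in the fit (adjusted p 0.0686). It did in a fit of the knockout arrays alone. The difference of the diet changes, 1.92 (SE 0.44, adjusted p 0.00862), passed on leaving out each of the 20 arrays, with 1.66 (adjusted p 0.03) without array 32, and also with the covariate (1.96, adjusted p 0.00933).

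Anxa1, a calcium-dependent membrane-binding protein abundant in squamous cells, read 12.95, 12.76, 12.89, 12.97 and 12.92 on ZS and 13.26, 13.74, 13.52, 13.82 and 13.01 on ZD, without overlap. It rose by 0.57 (SE 0.17, adjusted p 0.0206), lost without ZD array 12 or 14, and changed by 0.07 in knockout rats (adjusted p 0.81). The membrane protein Emp1 fell by 0.24 (SE 0.08, adjusted p 0.0457) in unedited rats, from 12.51, 12.45, 12.45, 12.15 and 12.36 to 12.06, 11.93, 12.25, 12.36 and 12.12, with overlap. Its call was lost on leaving out any of 7 of the 10 arrays (ZD 11, 12 and 15, ZS 16, 17, 18 and 20). Lypd3, a suprabasal surface protein, rose by 0.40 (SE 0.12, adjusted p 0.0153) in knockout rats, from 11.23, 11.01, 10.69 and 11.52 to between 11.13 and 11.80, a call lost without array 32 (0.26, adjusted p 0.134). The checkpoint protein Sfn had a change of 0.40 in unedited rats that missed the threshold (adjusted p 0.0513), and the ammonia channel Rhcg, dim on every array, passed nowhere.

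**Figure D5:**
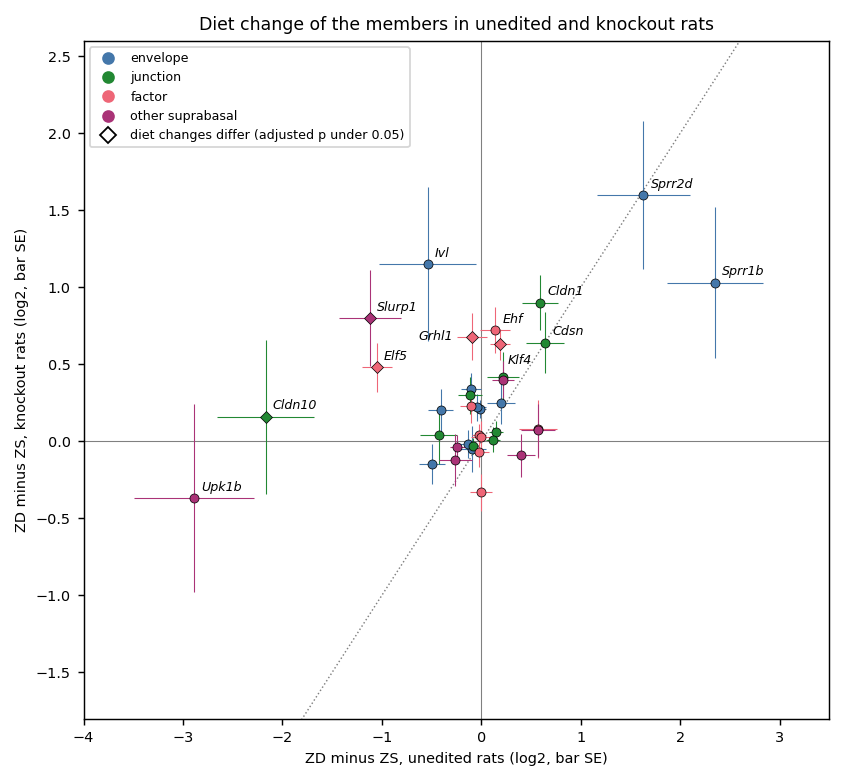
Diet change (ZD minus ZS, log2) of each of the 37 members in unedited (horizontal) and knockout rats (vertical), with SE bars, coloured by class; diamonds mark the 5 members whose diet changes differ with an adjusted p under 0.05, and the dotted line marks equal changes. Sprr2d, Cdsn and Cldn1 lie near the line (1.63 and 1.60 for Sprr2d), and Cldn10, Elf5, Slurp1, Grhl1 and Klf4 lie above it.

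The smooth muscle level was set against the calls in 1 further fit. In unedited rats the marker means of the 2 diets did not overlap, so diet and this level cannot be told apart. With it as a covariate 1 of the 13 called members kept its call. That is 2.7% of the measured members, against 0.851% of all genes. A lost call did not always mean a smaller change. Evpl (-0.61), Ppl (-0.47), Emp1 (-0.32) and Slurp1 (-1.22) fell at least as far with the covariate, with larger SEs (0.42 against 0.31 for Slurp1). The other lost members changed less, Cldn1 (0.07) and Elf3 (0.06) hardly at all. The markers also moved with the 5-week antimiR calls against ZS, of which Elf5 and Slurp1 were kept (5.41% of members, against 1.9% of all genes). They moved in knockout rats too, where Cldn1, Klf4, Grhl1, Ehf and Notch1 were kept (13.5% of members, near the 10.9% of all genes). For the difference of the diet changes 7 members passed with the covariate (18.9%, against 9.45% of all genes): Ppl, Scel, Klf4, Grhl1, Elf5, Ehf and Slurp1. The suprabasal keratin mean, in contrast, ranged only from 13.99 to 14.18 over all arrays, near the top of the scale. The leukocyte marker mean was 6.30 to 6.77 on ZS and 6.74 to 7.06 on ZD in unedited rats, and 7.03 to 8.88 and 6.81 to 7.24 in knockout rats, where 4 of 8 markers fell with ZD. Fibroblast markers stood at 9.02 to 9.40 and 8.84 to 9.25 in unedited rats, with no call, and at 9.46 to 11.26 and 8.84 to 10.02 in knockout rats, where 3 of 8 fell and the median change was -0.73. Endothelial markers, 6 of 7 measured, stood at 6.01 to 6.25 on ZS and 6.44 to 6.67 on ZD in unedited rats, where 2 rose, and at 7.27 to 8.00 and 6.77 to 7.42 in knockout rats, where 1 fell. Diet changes differed between the genotypes for 5 of 8 leukocyte and 3 of 6 endothelial markers, more negative in knockout rats. None of 8 fibroblast markers differed, with 2 at an unadjusted limma p under 0.05, beside 23.4% of all genes. Over all genes 4.61% were more negative in knockout rats, 12% fell with ZD in knockout rats and 6.94% rose in unedited rats. All these marker counts include array 32. The part of these 3 lists in the results was not tested beyond leaving out array 32.

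Other genes of squamous differentiation, from a list of 77 of which 51 were measured, were counted in the same way. In unedited rats 4 rose with ZD, among them the transglutaminase Tgm5 (0.90, SE 0.26, adjusted p 0.0225) and the factor Tfap2a (0.61, SE 0.13, adjusted p 0.00264), and 6 fell, among them the acid sphingomyelinase Smpd1 (-0.97, SE 0.26, adjusted p 0.0121), claudins Cldn3 (-0.55) and Cldn7 (-0.76) and occludin (Ocln, -0.46). These 10 are 19.6% of the 51, against 13.9% of all genes, and the median change was -0.01. In knockout rats 16 rose and 2 fell (Pkp3 and Cldn7), 35.3% of the 51 against 21.4% of all genes, with a median of 0.16. Without array 32 7 rose and 1 fell, 15.7% against 11% of all genes, with a median of 0.10. Those that rose included Sprr1a (0.36, adjusted p 0.000582), the protease Klk8 (0.68, adjusted p 0.00144) and the protease inhibitor Spink5 (0.53, adjusted p 0.00397), which all passed without array 32 too. The factor Prdm1 (0.89, adjusted p 0.00944) did not pass without it.

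The diet changes of 10 of these 51 genes were more positive in knockout rats, against 1 that was more negative, Hey1 (-0.94), together 21.6% of the 51 against 8.39% of all genes. They included Ocln (0.79, SE 0.16, adjusted p 0.00334), Smpd1 (1.48, SE 0.37, adjusted p 0.0141) and S100a16 (0.48, SE 0.10, adjusted p 0.0049), the 3 that also passed without array 32, where Pkp3 and not Hey1 was the 1 more negative (7.84% against 4.33% of all genes). After antimiR none of the 51 passed in limma against untreated ZD at 5 or 20 weeks, with 2 and 8 at an unadjusted p under 0.05. Those are 3.92% and 15.7% of the 51, below and near the 7.18% and 14.8% of all genes. Against ZS 3 were higher and 4 lower after 5 weeks (13.7%, against 9.08% of all genes). After 20 weeks 1 was higher (Tfap2a, 0.51) and 1 lower (Smpd1, -1.19), 3.92% against 3.63%.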

How the data were processed

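Total RNA of pulverized oesophageal epithelium was hybridized to Affymetrix rat arrays. The authors deposited 1 log2 value for each probe set and array. The submitters' processing notes name RMA and Affymetrix Expression Console, whose versions are not given in the sources used here. Of 31099 probe sets, 20826 carried 1 gene symbol, 436 several. The probe set with the highest mean was used for each of 14217 genes. Groups were taken from the sample titles. One linear model over all 30 arrays, with 1 coefficient per group, was fitted with limma 3.58.1 in R 4.3.3 (lmFit, eBayes), and p-values were Benjamini-Hochberg adjusted over all genes within each of 8 comparisons (threshold 0.05). Each p-value sets a group difference against the spread between arrays within groups. That spread was estimated over all groups together, knockout and unedited, and moderated across genes by eBayes. The number of arrays limits the precision. All measured members were described. Those called anywhere are given with values, but not in every case for all groups. The members and lists were chosen with earlier results of these data known. The fit was tested on simulated data. Alternatives were other normalizations, filters, weights, probe set rules, arrays in the fit, a smooth muscle covariate and leaving out each array. Added after the data were seen were the counts of the other squamous genes without array 32 and with that covariate. Promoter and miRNA sequences are from RefSeq (GRCr8).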

Additional observations from a re-analysis of the deposited data

Results flagged for a closer look

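In 5 cases 1 array stood away from the rest of its group. Ppl was 12.53 on 20-week antimiR array 2, against 12.95 to 13.12 on the other arrays. Cdsn was 12.43 on ZD knockout array 34, against 11.75 to 11.93. On the same array Slurp1 was 9.79, against 10.34 to 10.61. Elf5 was 6.62 on 5-week antimiR array 6, against 7.0 to 7.11. Ehf was 8.23 on untreated ZD array 13, against 8.65 to 8.82. Of 126 sets of arrays examined (21 genes in 6 groups), chance gives about 1 in 20, or 6.3, so 5 is no more than that.

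For 5 genes the diet changes of knockout and unedited rats differed in limma's test of the difference itself. The difference was 2.32 for Cldn10, 0.44 for Klf4, 0.77 for Grhl1, 1.53 for Elf5 and 1.92 for Slurp1, each more positive in knockout rats. Genotype and experiment cannot be told apart in these values.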

How the results depend on the processing

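With 4 to 6 arrays in a group, a single array often decided which members passed. Leaving out each array in turn, the number of members called was 7 to 12 for diet in unedited rats (13 with all arrays), 4 to 14 for diet in knockout rats (11), 2 to 8 for the difference of the diet changes (5), 5 to 7 for 5 weeks of antimiR against ZS (7), 0 to 3 for 20 weeks against ZD (1) and 0 to 2 for 20 weeks against ZS (0). With the smooth muscle covariate the counts were 1, 5, 7, 2, 0 and 0 in that order. Array weights gave 4 members for 20 weeks against ZD and 3 against ZS, while the count over all genes went from 92 to 557 and from 516 to 664. Against ZS after 20 weeks, 1 member passed without the dimmest 30% of genes and 1 with the mean of all probe sets, and 2 with only the groups compared or only arrays of the same normalization set. For the difference of the diet changes the last of these could not be computed. Of 748 refits of the 37 called results, 589 kept the call, 158 lost it and 1 reversed, Notch1 in knockout rats with the mean of all probe sets (0.13, adjusted p 0.507). The cause of these shifts was not tested. No paired analysis was possible because the array numbers are unique to each rat.

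Dim probe sets, near the array median (Cldn10, Upk1b, Elf3, Ivl, Rhcg, Notch3), and those near the top of the scale (Sprr3) limit how well their changes are measured. Elf3 and Ivl stood at the 40.1 and 43.2 percentiles of level.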

Other observations

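Of the members, 7 had more than 1 probe set. All 3 Cldn1 probe sets gave like diet changes in unedited rats (0.59, 0.67 and 0.61), whereas in knockout rats they gave 0.90, 0.94 and 0.13. For Grhl1 in knockout rats the second probe set gave 0.33 where the first gave 0.68. The 3 other Klf5 probe sets gave 0.30, 0.48 and 0.47 in knockout rats, against 0.04 for the one used. For Tp63 in knockout rats a second, dimmer probe set gave 0.61 where the one used gave 0.03, and for Emp1 a second one gave -0.95 where the one used gave -0.04.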
